A study of Mus musculus with 22 samples.

Results

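Transcripts of 10 calcium handling genes were followed in brown adipose tissue (BAT) of mice: *Atp2a1*, *Atp2a2*, *Atp2a3*, *Ryr1*, *Ryr2*, *Casq1*, *Casq2*, *Pvalb*, *Sln* and *Cacna1s*. They were taken as a named list from the 55487 genes of the count tables, and each symbol matched 1 identifier. BAT was sequenced from 22 mice on a C57BL/6 background, with 1 library per mouse. The untreated cohort held 5 CPEB2-WT (WT) and 5 CPEB2-KO (KO) mice, labelled male and 21 to 25 weeks old, and the study states that the untreated mice were kept without food for some hours before collection. In the AAV cohort male WT or KO mice received 20000000000 vector genomes of AAV in 30 μl of PBS at 16 weeks of age, injected into interscapular BAT at 10 μl per site, and BAT was taken 9 weeks later. Mice of either genotype received AAV-GFP or AAV-PRDM16, which made 4 groups of 3 mice. The PRDM16 virus carried a flag-tagged mouse coding sequence. KO mice lack CPEB2, an RNA-binding protein that regulates translation, in the whole body, and the adult KO mice are those that survived an early postnatal loss. The study asked which transcripts depend on CPEB2 in BAT and whether PRDM16, a regulator of brown fat identity, alters them.

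In skeletal muscle, depolarization moves the voltage sensor Cav1.1, encoded by *Cacna1s*, which opens the ryanodine receptor RyR1 (*Ryr1*) and releases calcium from the sarcoplasmic reticulum. Calsequestrins (*Casq1* in fast muscle, *Casq2* in heart and slow muscle) buffer calcium inside that store, parvalbumin (*Pvalb*) buffers it in the cytosol of fast fibers, and the SERCA1 pump (*Atp2a1*) returns it, restrained by the small peptide sarcolipin (*Sln*). SERCA2 (*Atp2a2*) serves heart, slow muscle and, through its ubiquitous isoform, most other cells, RyR2 (*Ryr2*) is the cardiac receptor and is also found in fat and nerve, and SERCA3 (*Atp2a3*) is a pump of blood cells, endothelium and epithelia. Calcium cycling through SERCA and ryanodine receptors has been described as a source of heat in muscle and in fat.

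Promoters of the members are shown where a muscle motif was found. RefSeq promoters of 300 bases, of which 250 precede the start site (build GRCm38.p6), were held for 8 of the 10 genes, with 9 promoters in all. CAGCTG, a form of the E-box CANNTG that reads the same on both strands, was in 3 of these 9 promoters, those of *Atp2a1*, *Casq1* and *Cacna1s*, and in 16.3% of all 32851 promoters. The MEF2 consensus, searched on both strands, was in 2 of the 9, those of *Casq2* and *Pvalb*, and in 3.19% of all promoters. The general E-box CANNTG was in 6 of the 9 and in 72.3% of all. *Ryr1* and *Atp2a3*, whose promoters were also held, had none of these motifs there. A link between motifs and levels was not tested. In the windows of 30 bases below, written 5′ to 3′ on the gene's strand, capitals mark the motif, and a match describes the letters alone.
Atp2a1, CAGCTG, chr7:126463111-126463140, minus strand: cctcataaggacCAGCTGggggctgggggg
Casq1, CAGCTG, chr1:172220073-172220102, minus strand: gggggaaggaacCAGCTGctgggagggagc
Cacna1s, CAGCTG, chr1:136052676-136052705, plus strand: tggaaggaatgaCAGCTGcctggccgcagg
Casq2, MEF2, chr3:102086336-102086365, plus strand: attgcatgatTTATTTTTAGctcgaaacaa
Pvalb, MEF2, chr15:78206561-78206590, minus strand: aggccaagggTTATTAATAGgcctggctca

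The CAGCTG of *Atp2a1* began 55 bases before the start site, that of *Cacna1s* 123 bases and that of *Casq1* 195 bases before it. The MEF2 match began 69 bases before the start in *Casq2* and 180 bases before it in *Pvalb*. In the GENCODE annotation of GRCm38 the genes lie at chr7:126445858-126463108 (*Atp2a1*), chr7:29003344-29125179 (*Ryr1*), chr1:172209894-172219868 (*Casq1*), chr1:136052750-136119822 (*Cacna1s*), chr15:78191114-78206400 (*Pvalb*), chr9:53850164-53854560 (*Sln*), chr3:102086415-102146514 (*Casq2*), chr13:11553102-12106945 (*Ryr2*), chr5:122453513-122502225 (*Atp2a2*) and chr11:72961169-72993044 (*Atp2a3*). The values are those of whole genes. *Atp2a1* overlaps the coding gene *Rabep2* on the opposite strand, and *Ryr1*, *Casq1* and *Cacna1s* overlap annotated antisense transcripts, whose reads cannot be told apart where counting ignored strand.

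Levels are given as CPM, a gene's counts scaled to library size with TMM factors. Depth was 55320927 to 162721202 counts per library without treatment and 61636889 to 143005309 with AAV. *Cpeb2*, the targeted gene, was at 7.69 to 14.3 CPM in untreated WT and at 2.10 to 5.78 CPM in KO mice 2 to 5, but KO mouse 1 was at 11.7 CPM, within the WT range. *Cpeb2* in AAV-treated mice lay between 10.5 and 14.0 CPM in the 6 WT libraries and between 4.33 and 5.55 CPM in the 6 KO libraries, without overlap. In 6 untreated libraries, 2 WT and 4 KO, the summed level of Y-linked transcripts was at most 1.17 CPM. It was at least 77.1 CPM in the other 4, although all are labelled male. This feature was unbalanced between the genotypes, so in the untreated cohort it cannot be fully told apart from genotype. Brown adipocyte markers summed to 9496 to 21111 CPM in the untreated and 8011 to 12345.0 CPM in the AAV cohort, with all 10 detected in every library. Skeletal muscle markers, 13 genes such as *Acta1* and *Ckm*, summed to between 15.2 and 7028 CPM in untreated BAT and between 1.56 and 102 CPM in the AAV cohort. Cardiac markers summed to at most 15.7 CPM in the untreated and 0.347 CPM in the AAV cohort, and atrial *Nppa* was at 0 in all 22 libraries. In bulk tissue, fewer cells of a type and less RNA per cell cannot be told apart.

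*Atp2a1*, the fast muscle calcium pump, varied by orders of magnitude between mice of one genotype in untreated BAT. Its level in the 5 WT libraries was 21.3, 25.7, 511, 1.61 and 6.46 CPM, and in the 5 KO libraries 843, 728, 20.4, 1.73 and 239 CPM. WT mouse 3 and KO mice 1, 2 and 5 were high, KO mouse 4 was as low as WT mouse 4, and the groups overlapped. *Ryr1*, the release channel of skeletal muscle, stood at 3.86, 5.33, 58.1, 0.335 and 0.891 CPM in WT and at 96.0, 84.2, 1.65, 0.318 and 14.5 CPM in KO. *Casq1*, the calcium store protein of fast fibers, stood at 1.67, 1.91, 44.8, 0.280 and 0.872 CPM in WT and at 63.2, 65.2, 2.43, 0.238 and 16.3 CPM in KO. The same 4 mice were highest for all 3 genes.

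*Cacna1s*, the voltage sensor, followed the same mice, with 1.57, 1.26, 27.2, 0.140 and 0.297 CPM in WT and 37.6, 41.9, 0.680, 0 and 10.1 CPM in KO. *Pvalb*, the cytosolic buffer, was at 2.58, 2.61, 102, 0.904 and 2.75 CPM in WT and at 144, 236, 9.36, 0.556 and 66.7 CPM in KO. *Sln*, the SERCA inhibitor, was counted only in the 4 libraries that were high for the other genes, at 1.72 CPM in WT mouse 3 and at 3.02, 2.98 and 0.626 CPM in KO mice 1, 2 and 5. The other 6 untreated libraries held 0 *Sln* counts, as did all 12 AAV libraries, where a count of 0 allows at most 0.0203 to 0.0501 CPM by library (3 counts, counting error only).

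**Figure D1:**
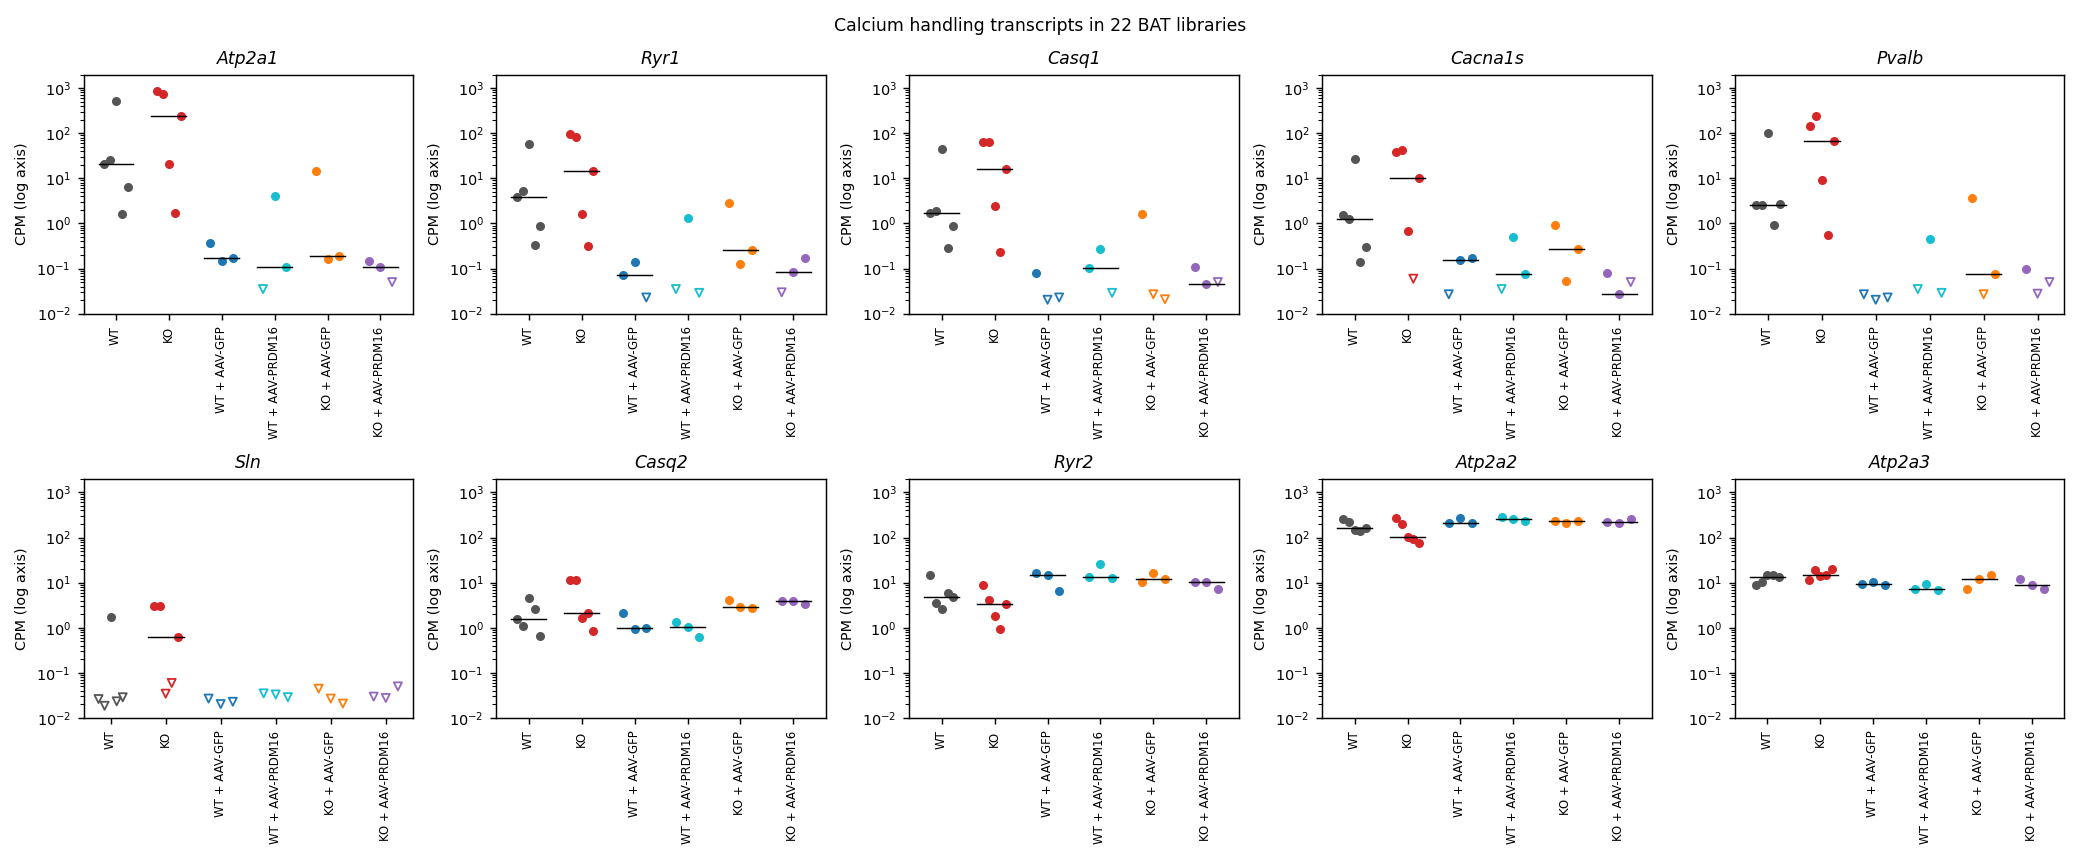
Level of each of the 10 genes in CPM (log axis) in the 22 libraries, by group, with mice in numerical order from left to right and a line at the group median where it is above 0. Open triangles are libraries with 0 counts, placed at the CPM that 3 counts would give. The upper row and Sln spread over orders of magnitude in the untreated cohort and lie near 0 in most AAV libraries, while Atp2a2 and Atp2a3 stay within narrow ranges.

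The muscle forms varied much less relative to the skeletal muscle markers than in level. The marker sum was 176, 184, 3317, 17.8 and 77.3 CPM in the WT and 6169.9, 7028, 122, 15.2 and 1027 CPM in the KO libraries, a 461-fold range. *Atp2a1* spanned 523-fold in level over the 10 untreated libraries, but its level per 1000 CPM of markers spanned only 2.79-fold, from 83.6 to 233 CPM. For *Ryr1* the range fell from 302-fold to 2.52-fold, for *Casq1* from 274-fold to 2.16-fold and for *Pvalb* from 424-fold to 5.42-fold. A gene with a far narrower range than the 461-fold range of the markers must widen when divided by them. This held for the others, whose range went from 3.60-fold to 285-fold for *Atp2a2*, from 15.6-fold to 546-fold for *Ryr2* and from 2.26-fold to 524-fold for *Atp2a3*. *Casq2* widened as well, with 17.3-fold in level and 179-fold per marker level. These are descriptions over libraries of both genotypes that share their scaling, and the part of muscle tissue beside the fat pad in these levels was not tested.

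**Figure D2:**
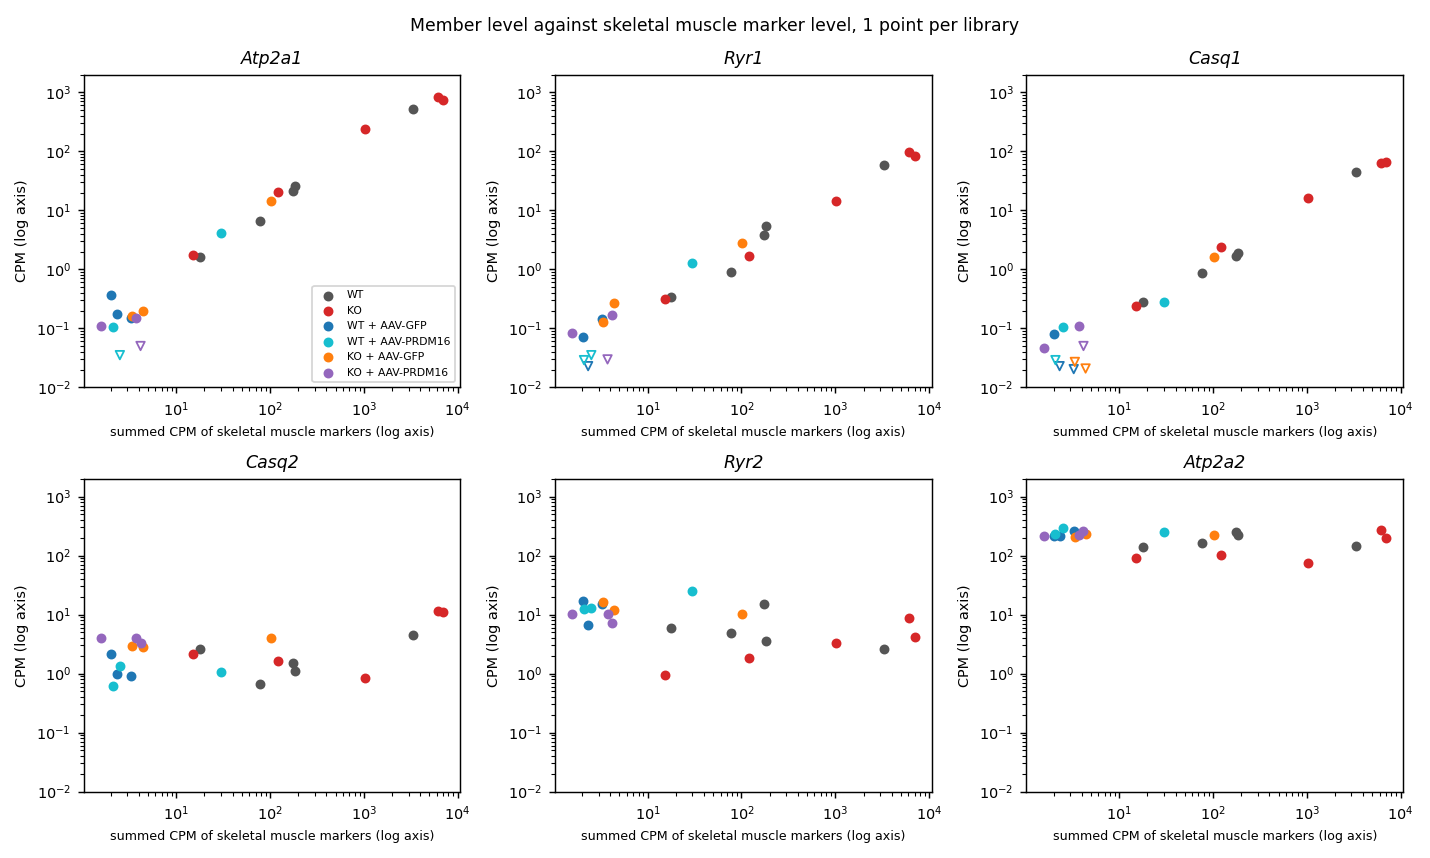
Level of 6 genes in CPM against the summed CPM of 13 skeletal muscle markers, both on log axes, with 1 point per library coloured by group and open triangles for libraries with 0 counts. In the untreated libraries Atp2a1, Ryr1 and Casq1 rise with the markers in both genotypes, whereas Atp2a2 and Ryr2 span a far smaller range and are higher at the marker-rich end in KO alone. Casq2 is highest in the 2 libraries richest in markers and is also above 2.8 CPM in the 6 AAV libraries of KO mice, 5 of which have marker sums of at most 4.38 CPM.

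None of the 9 members tested was called between untreated KO and WT at an FDR of 0.05 by edgeR's quasi-likelihood test, where 0% of all 17869 genes were called. None had an unadjusted p under 0.05 either, beside 15.9% of all genes, and DESeq2 called 0 members and 0 genes. *Sln* was too low to be tested. The log2 fold change (log2FC, KO minus WT) was 1.69 (SE 1.50) for *Atp2a1*, 1.53 (SE 1.42) for *Ryr1*, 1.58 (SE 1.40) for *Casq1*, 1.57 (SE 1.52) for *Cacna1s* and 2.04 (SE 1.44) for *Pvalb*. Their adjusted p ran from 0.442 to 0.569, so differences of this size lay within the spread between mice. *Casq2* differed by 1.39 (SE 0.74) with an adjusted p of 0.347. The libraries of no member stood apart between the genotypes, and those of 1.40% of all genes did.

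At the study's thresholds, a change of at least 2-fold at an FDR of at most 0.5, *Casq2* and *Pvalb* were higher in KO, 2 of 9 members beside 6.04% of all genes. The thresholds were applied here to edgeR results. The study used another tool, iDEP, so its list of genes can differ. KO mice 1 and 2 had the highest skeletal muscle, slow muscle and cardiac marker sums and, within KO, the highest levels of the genes listed next. They were left out together after the data were seen, with WT mouse 3 kept, so a fall in log2FC was built into the choice. The log2FC then turned to -0.30 for *Atp2a1*, -1.23 for *Ryr1*, -0.56 for *Casq1*, -0.67 for *Cacna1s* and -0.41 for *Casq2*, and fell to 0.28 for *Pvalb*. All 6 adjusted p-values were then at least 0.633. Without the library of WT mouse 3, the only WT library rich in markers, the log2FC of *Atp2a1* was 4.73 and that of *Pvalb* 5.37. Leaving out KO mouse 1 or KO mouse 2 alone kept all 6 values above 0. The standard deviation of log2 CPM within genotypes, pooled over WT and KO, was 3.07 to 3.87 for *Atp2a1*, *Ryr1*, *Casq1*, *Pvalb* and *Cacna1s*. The median over all genes tested was 0.59.

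*Atp2a2*, the pump of slow muscle and most other cells, varied far less between mice. It stood at 251, 226, 147, 142 and 162 CPM in untreated WT and at 273, 197, 101, 91.7 and 75.9 CPM in KO. KO mice 3 to 5 lay below every WT mouse and KO mouse 1 above, so the groups overlapped. Within KO the 2 highest libraries were those of mice 1 and 2, the richest in skeletal muscle markers, and the same held for *Ryr2*. The part of the markers in these levels was not tested. The log2FC was -0.33 (SE 0.37, adjusted p = 0.623). Without KO mice 1 and 2, left out after the data were seen, it was -1.02 with an adjusted p of 0.0938. Without WT mice 1 and 2 it was 0.02. *Atp2a3*, the pump of blood and endothelial cells, was at 8.83 to 15.0 CPM (median 13.1) in WT and at 11.6 to 19.9 CPM (median 15.0) in KO, with a log2FC of 0.37 (SE 0.23, adjusted p = 0.398). Its spread within genotypes, 0.33 on the log2 scale, was the smallest of the members.

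*Ryr2*, the cardiac release channel, was at 14.9, 3.55, 2.66, 5.84 and 4.88 CPM in untreated WT and at 8.83, 4.21, 1.81, 0.953 and 3.33 CPM in KO. WT mouse 1 was highest and KO mouse 4 lowest, with overlap between. The log2FC was -0.73 (SE 0.59, adjusted p = 0.495). *Casq2*, the cardiac and slow muscle calsequestrin, was at 1.54, 1.09, 4.58, 2.61 and 0.661 CPM in WT and at 11.4, 11.3, 1.66, 2.14 and 0.839 CPM in KO. KO mice 1 and 2 alone lay above all WT mice, and KO mouse 5, rich in *Atp2a1*, was near the bottom. Slow muscle markers summed to 7.32, 0.919, 280, 2.53 and 7.81 CPM in WT mice 1 to 5 and to 821, 847, 7.57, 0.774 and 45.4 CPM in KO mice 1 to 5. *Casq2* did not follow them in every library. WT mouse 4 and KO mouse 4, low in these markers, had *Casq2* at 2.61 and 2.14 CPM, above KO mouse 5 at 0.839 CPM. The part of slow muscle markers in the *Casq2* level was not tested.

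Compared per kilobase of exon, SERCA transcripts changed their make-up between libraries. *Atp2a1* held 84.5% of the summed SERCA level in WT mouse 3 and 83.7%, 85.3% and 80.9% in KO mice 1, 2 and 5. It held 1.74% to 15.9% in the other 4 WT mice and 23.3% and 2.70% in KO mice 3 and 4. *Atp2a2* held most of the rest, 13.2% to 87.9% over the 10 libraries. In the AAV cohort *Atp2a2* held 87.1% to 97.2%, *Atp2a3* 2.78% to 6.76% and *Atp2a1* at most 9.73%. In that cohort the median level per kilobase was 37.5 CPM for *Atp2a2*, 1.71 CPM for *Atp2a3*, 0.909 CPM for *Casq2*, 0.421 CPM for *Ryr2* and at most 0.0447 CPM for each of *Atp2a1*, *Ryr1*, *Casq1*, *Pvalb*, *Sln* and *Cacna1s*.

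**Figure D3:**
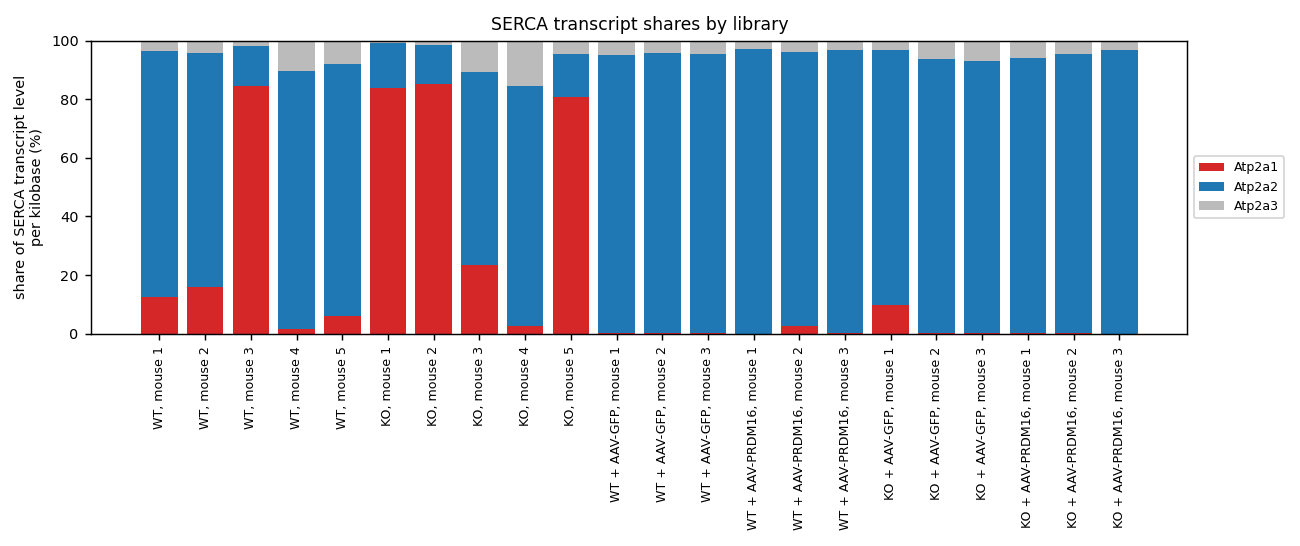
Share of each SERCA transcript in the summed SERCA level per kilobase of exon (%), as stacked bars from 0 to 100% for the 22 libraries. Atp2a1 takes over 80% in 4 untreated libraries, and Atp2a2 takes 87.1% or more in all 12 AAV libraries.

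Ratios of a fast muscle form to its paralogue were compared on the log2 scale from counts per kilobase, over 3 ratios and 5 comparisons, by two-sided exact permutation tests. In the untreated cohort *Atp2a1* to *Atp2a2* was 0.23 ± 3.37 in KO and -2.40 ± 3.08 in WT (SD, n = 5 each, exact p = 0.230, adjusted p = 0.738). *Ryr1* to *Ryr2* was 2.04 ± 2.45 in KO and -0.29 ± 3.33 in WT (exact p = 0.246, adjusted p = 0.738), and *Casq1* to *Casq2* was 1.83 ± 2.82 in KO and 0.77 ± 2.32 in WT (exact p = 0.556, adjusted p = 1.0). None of the 3 ratios differed by more than the spread between mice. With 3 mice against 3 the exact test cannot go below 0.1. Among AAV groups the raw p ran from 0.1 to 1.0 and the adjusted p from 0.738 to 1.0. The value of 0.1 was that of *Atp2a1* to *Atp2a2* in KO + AAV-PRDM16 against KO + AAV-GFP, at -11.27 ± 2.46 and -7.34 ± 3.62 (SD, n = 3 each, two-sided exact permutation test), where *Atp2a1* was at most 0.149 CPM in the first group.

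In the AAV cohort the muscle forms were near the limit of detection except in 2 libraries. *Atp2a1* was at 0.368, 0.149 and 0.175 CPM in WT + AAV-GFP, at 0, 4.15 and 0.106 CPM in WT + AAV-PRDM16, at 14.5, 0.162 and 0.194 CPM in KO + AAV-GFP and at 0.149, 0.111 and 0 CPM in KO + AAV-PRDM16. KO + AAV-GFP mouse 1 and WT + AAV-PRDM16 mouse 2 stood out. Their skeletal muscle marker sums were 102 and 29.7 CPM, against 1.56 to 4.38 CPM in the other 10 libraries. Per 1000 CPM of markers *Atp2a1* was at 143 CPM in the first and 140 CPM in the second, inside its untreated range. On that scale *Ryr1* at 43.6 CPM and *Cacna1s* at 17.1 CPM lay above their untreated ranges in the second library. Both lay inside these ranges in the first library, and *Casq1* and *Pvalb* lay inside theirs in both libraries.

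*Ryr1*, *Casq1*, *Pvalb* and *Cacna1s* were highest in the same 2 libraries, at 2.80, 1.64, 3.63 and 0.924 CPM in KO + AAV-GFP mouse 1 and at 1.29, 0.277, 0.442 and 0.509 CPM in WT + AAV-PRDM16 mouse 2. In the other 10 AAV libraries each of the 4 stayed at or below 0.271 CPM. *Pvalb* held 0 counts in all 3 WT + AAV-GFP libraries, so no fold change is given against that group. The log2FC of *Atp2a1* was 4.42 (SE 1.91, adjusted p = 0.520) for KO minus WT under AAV-GFP and -3.89 (SE 2.00, adjusted p = 0.426) under AAV-PRDM16. Without the 2 libraries, left out after the data were seen, these values were -0.37 and 0.72. Between the viruses, AAV-PRDM16 minus AAV-GFP, the log2FC of *Atp2a1* was 2.63 (SE 1.80, adjusted p = 0.825) in WT and -5.69 (SE 2.10, adjusted p = 0.563) in KO, where the 3 libraries of each virus did not overlap. Without the 2 libraries it was -2.06 in WT. In KO it was -0.94 without KO + AAV-GFP mouse 1.

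*Casq2* differed from the other muscle genes in the AAV cohort. It stood at 2.17, 0.915 and 0.990 CPM in WT + AAV-GFP and at 4.02, 2.89 and 2.81 CPM in KO + AAV-GFP. It stood at 1.35, 1.05 and 0.626 CPM in WT + AAV-PRDM16 and at 3.96, 3.99 and 3.36 CPM in KO + AAV-PRDM16. All 6 KO libraries lay above all 6 WT libraries. The share of all genes with this pattern over both viruses was not computed. Within 1 virus the genotypes were apart for 13.4% of all genes under AAV-GFP and 22.8% under AAV-PRDM16. The pattern was not particular to *Casq2*, since *Asph* and *Atp2b4*, described below, showed it too. The log2FC of KO minus WT was 1.25 (SE 0.35, adjusted p = 0.308) under AAV-GFP and 1.91 (SE 0.36, adjusted p = 0.0887) under AAV-PRDM16, so edgeR called neither at an FDR of 0.05. DESeq2 called both, with adjusted p of 0.0423 and 9.91e-05. Without WT + AAV-GFP mouse 1, whose library is not part of that comparison but of the same fit, edgeR called the difference under AAV-PRDM16, at 1.91 with an adjusted p of 0.0472. Over the alternatives, the adjusted p ran from 0.0423 to 0.667 under AAV-GFP and from 9.91e-05 to 0.239 under AAV-PRDM16, and the log2FC from 1.03 to 1.76 and from 1.65 to 2.17. The interaction of genotype and virus was 0.65 (SE 0.50, adjusted p = 1.0), and the virus effect was -0.43 (SE 0.35) in WT and 0.22 (SE 0.35) in KO.

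The levels of *Casq2* came with low cardiac and slow muscle markers. In the AAV cohort the summed cardiac markers were at most 0.347 CPM and the slow muscle markers at most 4.90 CPM, that of KO + AAV-GFP mouse 1. Smooth muscle markers, 6 genes all counted in every library, summed to 47.4 to 63.1 CPM in KO + AAV-PRDM16 against 33.5 to 40.5 CPM in WT + AAV-PRDM16, and to 45.0 to 52.7 CPM in KO + AAV-GFP against 38.8 to 52.0 CPM in WT + AAV-GFP. They moved the same way as *Casq2* under AAV-PRDM16. There 5 of the 6 had an unadjusted p under 0.05, beside 13.7% of all genes, and 0 were called. Endothelial markers also moved that way, with 4 of 6 at an unadjusted p under 0.05, 0 called and a median log2FC of 0.45. Immune markers summed to 11.4 to 19.3 CPM in KO + AAV-PRDM16 against 7.86 to 9.47 CPM in WT + AAV-PRDM16, with 2 of 8 at an unadjusted p under 0.05, and under AAV-GFP all 8 had a log2FC above 0, with a median of 0.92 and overlapping sums. Brown adipocyte markers summed to 8433 to 9654 CPM in KO + AAV-PRDM16 against 10449.9 to 12345.0 CPM in WT + AAV-PRDM16, and 5 of 10 were lower at an unadjusted p under 0.05, with 0 called. The part of any of these cell types in the difference was not tested. Group means of *Casq2* ran, in order, from 1.01 ± 0.36 CPM in WT + AAV-PRDM16 through 1.36 ± 0.70 in WT + AAV-GFP and 3.24 ± 0.68 in KO + AAV-GFP to 3.77 ± 0.36 in KO + AAV-PRDM16 (SD, n = 3 each), and neighbours of one genotype overlapped.

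*Ryr2* was lower in KO than in WT under AAV-PRDM16 without overlap. It stood at 13.1, 25.4 and 12.4 CPM in WT + AAV-PRDM16 and at 10.3, 10.3 and 7.13 CPM in KO + AAV-PRDM16, a log2FC of -0.87 (SE 0.35, unadjusted p = 0.0288, adjusted p = 0.302). Without WT + AAV-PRDM16 mouse 2, the highest library, it was -0.46 with an adjusted p of 0.606. The summed brown adipocyte markers were lower in the same KO libraries without overlap, with a median log2FC of -0.29. But WT + AAV-PRDM16 mouse 2 had the lowest brown adipocyte sum of its group, 10449.9 CPM. It was also the library of that group rich in skeletal muscle markers, at 29.7 CPM. The part of either marker list in the *Ryr2* level was not tested. Under AAV-GFP *Ryr2* stood at 16.8, 14.9 and 6.65 CPM in WT and at 10.2, 16.6 and 11.9 CPM in KO, a log2FC of 0.01 (SE 0.35, adjusted p = 0.996). The interaction was -0.89 (SE 0.49) with an adjusted p of 1.0, so a difference between the viruses was not shown. *Atp2a2* stayed between 208 and 290 CPM in all 12 libraries, and its largest difference was -0.18 (SE 0.12, adjusted p = 0.576) for KO minus WT under AAV-PRDM16. *Atp2a3* stayed between 6.70 and 14.4 CPM, with differences between the groups of -0.31 to 0.29.

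**Figure D4:**
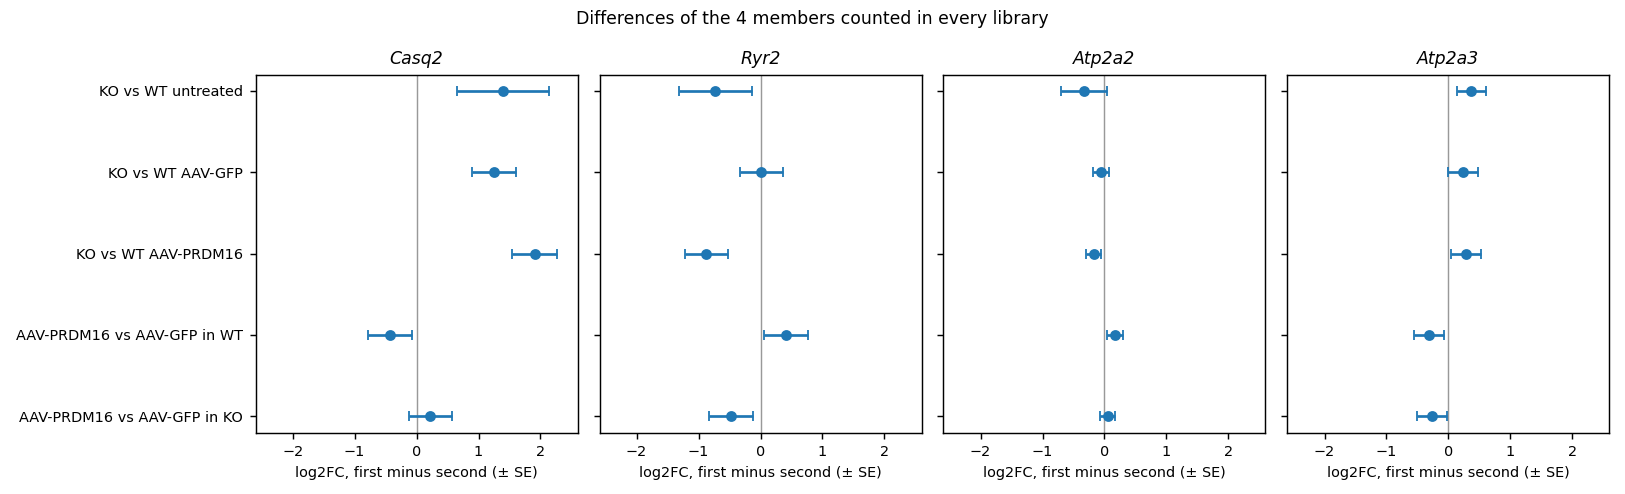
Log2FC (first group minus second, ± SE from edgeR) of Casq2, Ryr2, Atp2a2 and Atp2a3, the 4 members counted in every library, in the 5 comparisons. Casq2 lies to the right of 0 in all 3 comparisons of KO with WT, at 1.39, 1.25 and 1.91, and Atp2a2 lies within 0.33 of 0 in all 5.

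Over the AAV comparisons edgeR called 0 of 9 members at an FDR of 0.05 in each. Under AAV-GFP, KO against WT, edgeR called 0.0529% of all 18899 genes. There 3 members had an unadjusted p under 0.05 (*Atp2a1*, *Casq2* and *Pvalb*), beside 9.18% of all genes. For *Atp2a1* and *Pvalb* this rested on KO + AAV-GFP mouse 1. *Atp2a1* was at 14.5 CPM in that library and at 0.162 and 0.194 CPM in mice 2 and 3 of the group. DESeq2 called 1 member, beside 1.58% of the genes to which it gave an adjusted p, and gave none to 4 members. Only *Casq2* had libraries apart, beside 13.4% of all genes. Under AAV-PRDM16, KO against WT, edgeR called 0.0476% of all genes. Here 2 members had an unadjusted p under 0.05 (*Casq2* and *Ryr2*), beside 13.7% of all genes, and the libraries of these 2 were apart, beside 22.8%. DESeq2 called 1 member, beside 4.02% of genes, and gave 4 members no adjusted p. The thresholds that the study stated for its untreated mice gave 2 members higher in KO under AAV-GFP (*Casq2* and *Pvalb*, beside 1.43% of all genes). *Pvalb* met them against a group with 0 counts and through KO + AAV-GFP mouse 1 alone, since the other 2 KO libraries were at 0 and 0.0764 CPM, so it carries no size of effect. Under AAV-PRDM16 the thresholds gave 1 higher (*Casq2*, beside 3.35%) and 1 lower (*Atp2a1*, beside 1.50%), the second resting on WT + AAV-PRDM16 mouse 2.

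Between the viruses in WT, 0 members had an unadjusted p under 0.05 or libraries apart, beside 0% of genes called, 7.29% at that unadjusted p and 14.2% with libraries apart. In KO, 1 member (*Atp2a1*) had an unadjusted p under 0.05 and libraries apart, beside 0% called, 6.41% at that unadjusted p and 9.43% apart. Without KO + AAV-GFP mouse 1 its log2FC there was -0.94 instead of -5.69. For the interaction 3 members had an unadjusted p under 0.05 (*Atp2a1*, *Ryr1* and *Pvalb*), beside 3.19% of all genes, and 0% were called. All 3 were highest in KO + AAV-GFP mouse 1 and WT + AAV-PRDM16 mouse 2, and without these 2 libraries the interaction of *Atp2a1* was 1.09 instead of -8.32. DESeq2 called 0 members in these 3 comparisons, beside 0.779%, 1.39% and 0.00530% of genes, and gave 2 members no adjusted p in each.

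Partners of the release machinery of muscle, 18 genes of the triad and the sarcoplasmic reticulum, were described beside the members. In the untreated cohort 17 were tested and 16 had a log2FC above 0, with a median of 1.08 against 0.04 over all genes. But 0 were called, and 1 had an unadjusted p under 0.05, beside 15.9% of all genes. Those with the highest mean level over the 22 libraries were *S100a1*, a calcium sensor that binds SERCA and ryanodine receptors, *Asph*, whose locus encodes junctin, *Srl*, encoding sarcalumenin, and *Tmem38a*, a counter-ion channel of the reticulum. *Tmem38a* differed by 1.54 (SE 0.80, adjusted p = 0.340) in the untreated cohort. Its levels in AAV libraries stayed between 2.15 and 6.87 CPM. With AAV 14 of the 18 were tested, and 0 were called in any comparison. *Mrln*, the SERCA inhibitor myoregulin, was at 0 in all 12 AAV libraries.

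*Asph* was higher in KO under both viruses without overlap, at 40.0 to 43.2 CPM against 29.6 to 31.4 CPM under AAV-GFP (log2FC 0.45, SE 0.11, adjusted p = 0.231) and at 35.8 to 46.1 CPM against 26.6 to 31.7 CPM under AAV-PRDM16 (0.51, SE 0.11, adjusted p = 0.102). Neither passed the test, and libraries were apart for 13.4% of all genes under AAV-GFP and 22.8% under AAV-PRDM16. Of the 14 partners tested, 4 had libraries apart in each of these comparisons. *S100a1* differed by -0.40 (SE 0.14, adjusted p = 0.402) and *Srl* by -0.34 (SE 0.20, adjusted p = 0.669) under AAV-GFP. Under AAV-PRDM16 *Srl* differed by -0.54 (SE 0.20, adjusted p = 0.265).

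Calcium handling genes that are not particular to muscle were held in a list of 32, of which 31 matched a symbol and were tested. In the untreated cohort 7 had an unadjusted p under 0.05, beside 15.9% of all genes, 5 of the 7 were lower in KO, and 0 were called, with a median log2FC of -0.01 against 0.04 over all genes. *Itpr2*, the inositol trisphosphate receptor with the highest level, stood at 271, 362, 113, 132.0 and 146 CPM in WT and at 104, 99.7, 100.3, 112 and 68.7 CPM in KO. Its libraries did not overlap, by a narrow margin, and neither did those of 1.40% of all genes. The log2FC was -1.08 (SE 0.34, adjusted p = 0.305). With AAV *Itpr2* was between 190 and 356 CPM, with differences of -0.26 (SE 0.15) under AAV-GFP and 0.20 (SE 0.15) under AAV-PRDM16.

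*Letm1* and *Mcur1* of the mitochondrial inner membrane were also among the genes of that list with the highest levels. Their log2FC between untreated KO and WT was -0.09 for *Letm1* and -0.36 for *Mcur1*. *Letm1* differed by -0.56 (SE 0.15, adjusted p = 0.156) under AAV-PRDM16. The lowest adjusted p of either list belonged to *Atp2b4*, a calcium pump of the plasma membrane, singled out after its values were seen. It stood at 18.0, 13.0 and 13.4 CPM in WT + AAV-GFP against 21.1, 27.2 and 29.7 CPM in KO + AAV-GFP, and at 11.2, 16.5 and 11.2 CPM in WT + AAV-PRDM16 against 30.4, 24.7 and 28.0 CPM in KO + AAV-PRDM16. The libraries of the genotypes did not overlap under either virus. This was so for 5 of the 31 genes of its list under AAV-GFP and 11 under AAV-PRDM16. The shares of all genes were 13.4% and 22.8%. The log2FC of *Atp2b4* was 0.82 (SE 0.19, adjusted p = 0.202) under AAV-GFP and 1.10 (SE 0.19, adjusted p = 0.0659) under AAV-PRDM16. In untreated BAT it was -0.01 (SE 0.38, adjusted p = 0.988).

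The genes whose levels ran most like those of a member were found over 13626 genes tested in both cohorts, ranked by the lower of Pearson's r over the 10 untreated and over the 12 AAV libraries. For *Atp2a1* they included *Rtn2* (0.917) and the sarcomere gene *Ldb3* (0.906). For *Atp2a2* they included *Hif1a* (0.853) and *Ubl3* (0.832). For *Ryr2* the values were lower, 0.725 for *Glb1l*, 0.716 for *Ptbp2* and 0.691 for *Lpin2*. For *Atp2a3* they were *Il3ra* (0.861), *Pear1*, a receptor of platelets and endothelium (0.854), and *Sipa1* (0.824). These correlations describe libraries that share their scaling and tissue, and they were picked as the highest of many.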

How the data were processed

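BAT RNA of 22 mice was extracted with TRIzol and made into mRNA libraries with a SureSelect XT HS2 kit. The authors deposited counts per gene, whole numbers that were taken here to be unnormalized, in 1 table per cohort. The submitters' processing notes name bcl2fastq 2.20, Trimmomatic 0.36, HISAT2 and the build GRCm38.p6, and the counter, annotation, strand setting and use of molecular identifiers are not given in the sources used here. Low counts were uneven (with AAV, 9336 entries equal to 4 against 6580 equal to 3 and 3403 equal to 5). Groups and mouse numbers came from the sample titles. Nothing in the labels pairs mice across groups.

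Symbols and exon lengths came from GENCODE M21, which matched 55227 of the 55487 identifiers, and promoters from RefSeq. Genes were kept by filterByExpr and compared by edgeR 4.0.16 (quasi-likelihood, TMM, Benjamini-Hochberg adjustment) in R 4.3.3, in 1 fit per cohort over 17869 and 18899 genes. Ratios used counts per kilobase with a prior count of 0.5 and exact permutation tests in SciPy 1.17.1. Other settings tried were the RLE normalization, unfiltered genes, DESeq2 1.42.0, each library left out, a replicate block, only the 2 groups compared, WT mice 1 and 2 left out, a term for libraries with Y-linked reads, a prior count of 5 and, chosen after seeing the data, leaving out the libraries richest in muscle markers. The 10 members, the marker lists and the list of other calcium genes were chosen with earlier results of these data known. The named genes are all members, *Cpeb2*, the 4 genes of each calcium list with the highest mean CPM, any list gene called at an FDR of 0.05, markers at 0 in every library of a cohort and, for *Atp2a1*, *Atp2a2*, *Ryr2* and *Atp2a3*, the 3 most alike genes outside provisional and pseudogene names. Some genes that this rule names are not reported here. P-values weigh a difference against the spread between mice, which edgeR estimated over all groups of a cohort.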

Additional observations from a re-analysis of the deposited data

Results flagged for a closer look

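In untreated WT, the log2 CPM of *Pvalb* in mouse 3 lay far from the other 4 mice, with a gap to its nearest neighbour of 0.767 of the whole range, above the critical value for 5 samples. It was the only 1 of 18 pairs of gene and group over that value, and chance gives about 1 in 20. The same library was the highest of its group for *Atp2a1*, *Ryr1*, *Casq1*, *Cacna1s* and *Sln* and for the skeletal muscle markers.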

How the results depend on the processing

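The count of members called at an FDR of 0.05 was 0 in each comparison and in 103 of 106 alternatives. It was 1 in the other 3, *Casq2* each time, with DESeq2 under AAV-GFP (log2FC 1.26) and under AAV-PRDM16 (1.91) and without WT + AAV-GFP mouse 1 under AAV-PRDM16, so that leaving out a replicate gave 0 to 1 calls there. Same-numbered mice did not deviate together (r from -0.29 to 0.11 in 5 untreated pairs and from -0.09 to 0.15 in 18 AAV pairs), so the numbers were not taken to pair mice. A replicate block gave 0 calls in all 6 comparisons, with *Casq2* at 1.32 and 1.97 under AAV-GFP and AAV-PRDM16 and *Atp2a1* at 3.16 in the untreated cohort.

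Of the values, 643 kept their direction and side of the threshold under the alternatives, 38 reversed and 3 passed the threshold. Without KO mice 1 and 2 the untreated log2FC was -0.30 for *Atp2a1*, -1.23 for *Ryr1*, -0.56 for *Casq1*, -0.41 for *Casq2* and -0.67 for *Cacna1s*, and without WT mice 1 and 2 it was 0.017 for *Atp2a2*. Without the 2 AAV libraries richest in muscle markers, *Atp2a1* was at -0.37 and 0.72 between genotypes under AAV-GFP and AAV-PRDM16, at -2.06 between viruses in WT and at 1.09 in the interaction. With a prior count of 5 the log2 ratio difference between viruses was 0.24 for *Atp2a1* to *Atp2a2* and 0.32 for *Ryr1* to *Ryr2* in WT and -0.61 for *Casq1* to *Casq2* in KO. For the values given above, leaving out each library in turn gave these ranges of log2FC where a sign changed. Between genotypes under AAV-GFP, *Atp2a1* ran from -0.36 to 4.996, *Atp2a2* from -0.12 to 0.055 and *Ryr2* from -0.30 to 0.26, and under AAV-PRDM16 *Atp2a1* ran from -4.48 to 0.73. Between viruses in WT, *Atp2a1* ran from -2.01 to 3.21, *Casq2* from -0.69 to 0.077 and *Ryr2* from -0.0035 to 0.65, and in KO *Atp2a2* ran from -0.040 to 0.11. For *Atp2a1* to *Atp2a2* the ratio difference ran from -0.19 to 2.98 and from -3.59 to 1.24 between genotypes under AAV-GFP and AAV-PRDM16 and from -3.27 to 1.56 between viruses in WT. For *Ryr1* to *Ryr2* it ran from -0.038 to 3.48 between genotypes under AAV-PRDM16 and from -2.82 to 0.70 between viruses in WT. For *Casq1* to *Casq2* it ran from -2.57 to 1.62 between genotypes under AAV-GFP and from -1.38 to 2.81 between viruses in KO. The fitted AAV values of *Ryr1*, *Casq1*, *Pvalb* and *Cacna1s*, not given above because they rest on a few counts, changed sign in some of the comparisons as well, for example from -4.58 to 8.81 for *Casq1* under AAV-GFP, from -3.31 to 6.18 for *Ryr1* under AAV-PRDM16, from -6.01 to 3.59 for *Ryr1* between viruses in WT and from -4.29 to 5.60 for *Casq1* in KO, over all alternatives. The cause of these changes was not tested. Most of the muscle forms held few counts in the AAV libraries, and with 3 mice per group their ratios could not pass the exact test.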
